A study of Arabidopsis thaliana with 4 samples.

Results

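Small auxin-up RNA (SAUR) genes form one of the largest families of early auxin-response genes in plants. The 60 SAUR loci considered here were taken as a fixed list of Arabidopsis thaliana locus identifiers, and a locus counted as measured where a probe set of the array was annotated to it and to no other gene. By that rule 2 of the 60 were measured, SAUR10 (AT2G18010) and SAUR57 (AT3G53250), each with 1 probe set. The annotation used here ties no probe set to the other 58, and they were not analysed here. It left 8730 of the 22746 probe sets tested unnamed, so the arrays may hold probe sets for some of the 58. These 58 hold the best-studied genes of the family, among them SAUR15 (AT4G38850), the classic auxin-induced SAUR-AC1 gene, SAUR19 (AT5G18010) and its neighbours up to SAUR24 (AT5G18080), which promote cell expansion, SAUR63 (AT1G29440), which promotes organ elongation, and SAUR36 (AT2G45210), which is linked to leaf senescence. The values below therefore describe 2 genes and not the family.

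Transcript levels were measured on 4 Affymetrix ATH1 arrays, on which a set of short oligonucleotides reports on each transcript. The 2 rsa3-1 arrays and the 2 wild type arrays hold RNA of whole seedlings that were 6 days old when moved to 120 mM NaCl for 24 h, and the design text calls the arrays of a genotype biological replicates. All 4 carry the same background, Columbia gl1 with a luciferase transgene driven by the stress-responsive RD29A promoter. Both genotypes had salt, so each difference is one between genotypes under salt. The mutant is the single allele rsa3-1, and the transcript of RSA3, a xyloglucan galactosyltransferase that decorates a hemicellulose of the primary wall, was not analysed here.

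SAUR transcripts are short-lived and often accumulate within minutes of auxin treatment. Several SAUR proteins, studied mostly in Arabidopsis hypocotyls and leaves, bind PP2C.D phosphatases and block them. Plasma membrane proton pumps then stay phosphorylated and active, the wall is acidified and the cell can expand. Other SAUR genes are controlled by brassinosteroids, gibberellin, light or abscisic acid, and the family includes members whose function is not known.

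Neither SAUR gene passed the test between rsa3-1 and wild type, so 0 of the 2 was called (limma, adjusted p under 0.05). The background for that count is 1.13% of the 22746 probe sets tested, 256 calls in all. At an unadjusted p under 0.05 the count was 1 of 2, SAUR57, where 9.68% of all probe sets met that level. The genes pointed in opposite directions, SAUR57 lower in value in rsa3-1 and SAUR10 higher. Their median log2 difference was -0.12, against -0.01 over all probe sets tested. With 2 genes of opposite sign that median describes neither of them.

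SAUR57 had log2 values of 6.03 and 6.46 on the rsa3-1 arrays, against 6.68 and 6.76 on the wild type arrays. Both rsa3-1 values lay below both wild type values, and the rsa3-1 arrays were further apart than the wild type arrays. Values of the genotypes did not overlap in 38.6% of all probe sets, so the separation on its own is common on these arrays. The means were 6.25 ± 0.31 in rsa3-1 and 6.72 ± 0.05 in wild type (SD, n = 2 each). The log2 difference was -0.47 with a standard error of 0.15, which is a ratio of 0.720 of rsa3-1 to wild type. Its 95% interval ran from -0.82 to -0.13 before adjustment for the number of probe sets (limma, unadjusted p = 0.0145, adjusted p = 0.332). On size alone, 2.48% of the probe sets tested had a larger difference in either direction.

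The size of the SAUR57 difference depended on which rsa3-1 array was kept. Without rsa3-1 replicate 1 it was -0.26 (limma adjusted p = 0.852). Without rsa3-1 replicate 2 it was -0.69 (limma adjusted p = 0.108). Leaving out either wild type array moved it less, to -0.51 without wild type replicate 1 and to -0.44 without wild type replicate 2. The sign could not turn in these fits, since the groups do not overlap.

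SAUR10 is a SAUR gene that responds to auxin and brassinosteroid in Arabidopsis and has been linked to shoot growth and branching. It had log2 values of 3.24 and 3.47 on the rsa3-1 arrays, against 3.05 and 3.21 on the wild type arrays. The rsa3-1 values lay above the wild type values, but rsa3-1 replicate 1 exceeded wild type replicate 2 by less than the arrays of either genotype differed from each other. The means were 3.36 ± 0.16 in rsa3-1 and 3.13 ± 0.11 in wild type (SD, n = 2 each). The log2 difference was 0.23 with a standard error of 0.12, a ratio of 1.17, and its 95% interval of -0.05 to 0.51 included 0 (limma, unadjusted p = 0.0934, adjusted p = 0.617). The upper end of that interval is a ratio of 1.42.

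The level of SAUR10 was close to the bottom of the scale. The lowest value on any array was 2.57, and array medians ran from 6.46 to 6.51. No detection calls were used, so the SAUR10 signal may be background on all 4 arrays, and a difference between values this low understates any difference in transcript. Its log2 difference was 0.12 without rsa3-1 replicate 2 and 0.15 without wild type replicate 1. The largest value with an array left out was 0.34, without rsa3-1 replicate 1.

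**Figure D1:**
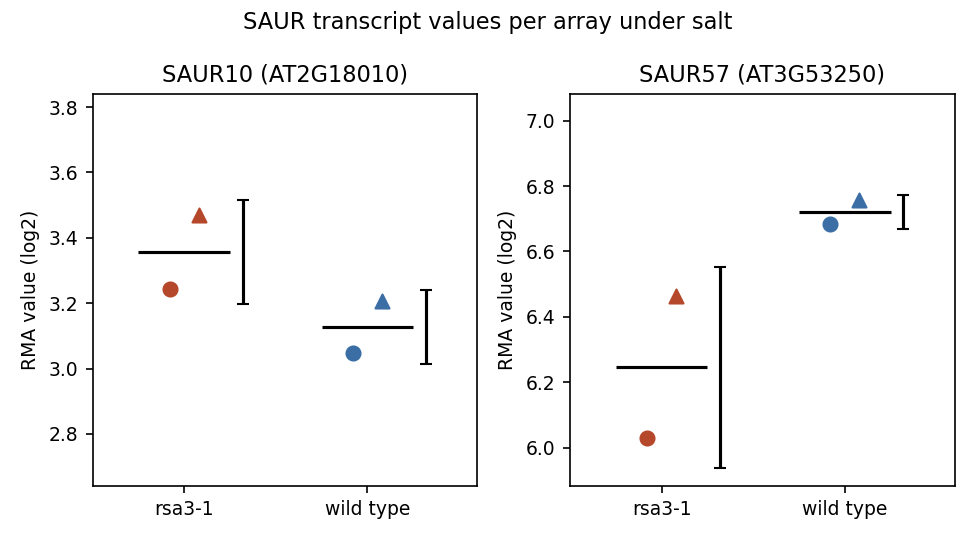
RMA values on the log2 scale (vertical axes, which cover the same span in both panels but do not start at 0) of SAUR10 and SAUR57 on each array; circles are replicate 1, triangles replicate 2, horizontal lines the means and vertical bars ± 1 SD (n = 2 each). SAUR57 lay at 6.03 and 6.46 in rsa3-1, below 6.68 and 6.76 in wild type, and SAUR10 lay slightly higher in rsa3-1 than in wild type near the bottom of the scale.

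**Figure D2:**
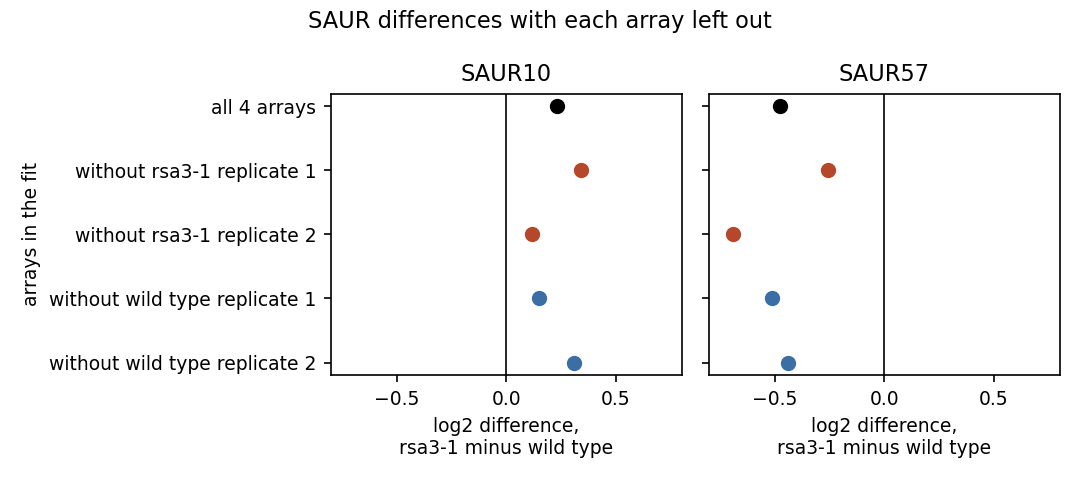
Log2 difference of SAUR10 and SAUR57, rsa3-1 minus wild type (horizontal axes), fitted with all 4 arrays and with each array left out (rows). SAUR57 ran from -0.69 to -0.26 and SAUR10 from 0.12 to 0.34 with an array left out.

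In RefSeq, 20 further genes carry a SAUR name outside the list of 60, and 1 of these, SAUR58 (AT1G43040), has a probe set of its own. It is given here because the annotation used here names no other SAUR gene, and it was picked after its values were seen. SAUR58 had log2 values of 4.16 and 3.97 in rsa3-1, against 3.58 and 3.81 in wild type. The difference was 0.37 with a standard error of 0.12 (limma, unadjusted p = 0.0182, adjusted p = 0.366), and it did not pass either. With each array left out the difference ran from 0.25 to 0.48. The level of SAUR58 was low in both genotypes, with means of 4.06 in rsa3-1 and 3.69 in wild type, and may again be background. The 3 SAUR genes named by the annotation did not share the sign of their differences, and whether they differ from one another was not tested.

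Many SAUR genes stand side by side in tandem clusters. By the order of protein-coding genes in RefSeq (assembly TAIR10.1), 29 of the 60 listed loci have another listed SAUR as their nearest neighbour on at least one side, and 0 of these 29 was measured. Neither SAUR10 nor SAUR57 has a listed SAUR next to it. SAUR10 lies between TAF14 and EMB2296, and SAUR57 lies next to PAL2, a phenylalanine ammonia-lyase of phenylpropanoid synthesis.

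Around the SAUR genes, 119 genes of auxin signalling and acid growth were listed and 21 of them were measured. None of the 21 passed between rsa3-1 and wild type (limma, adjusted p under 0.05), where 1.13% of all probe sets did. A limma unadjusted p under 0.05 was met by 1 of the 21, and by 9.68% of all probe sets. The log2 difference was negative in 16 and positive in 5, and the split over all probe sets was not counted. A mean log2 value of at least 5 was reached by 12 of the 21, so part of that split rests on low signals. The median of the 21 was -0.08, against -0.01 over all probe sets tested, and the values ran from -0.44 to 0.22. The measured genes cover 7 of 29 Aux/IAA repressors, 5 of 9 GH3 enzymes that conjugate auxin to amino acids, 3 of 11 auxin synthesis genes, 2 of 3 LBD transcription factors and 4 of 9 PP2C.D phosphatases. The listed auxin receptors, response factors, transporters, proton pumps and upstream growth regulators were tied to no probe set by the annotation and were not analysed here.

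Among the early auxin-response genes, LBD16, a transcription factor of lateral root initiation, was nearest to SAUR57 in the size of its difference. LBD16 had log2 values of 6.20 and 6.16 in rsa3-1, against 6.89 and 6.35 in wild type, so the arrays of the genotypes did not overlap but wild type replicate 1 stood apart. Its log2 difference was -0.44 (limma, unadjusted p = 0.0337, adjusted p = 0.448), and it was -0.17 without wild type replicate 1 and -0.71 without wild type replicate 2 (limma adjusted p = 0.840 and 0.0866).

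The GH3 and Aux/IAA genes, the other classes that hold early auxin-response genes, differed by at most the -0.19 of IAA31 on the log2 scale. Of these, 0 of the 12 passed, where 1.13% of all probe sets did. Whether the measured members respond to auxin in these seedlings was not tested. Of 5 GH3 genes 4 had a negative difference, with a median of -0.08, and the member of smallest p was GH3.1 at -0.16 (limma adjusted p = 0.806). The 7 Aux/IAA genes had a median of -0.06, and IAA31 had the smallest p, at -0.19 (limma adjusted p = 0.673). In auxin synthesis the flavin monooxygenase gene YUC4 was at -0.17 (limma adjusted p = 0.724). With each array left out, GH3.1 ran from -0.33 to 0.017, turning sign without wild type replicate 1, IAA31 from -0.28 to -0.10 and YUC4 from -0.29 to -0.05. IAA31, YUC4 and GH3.1 had wild type means of 3.58, 4.03 and 4.07, levels that may be background. IAA34, IAA30, IAA33, IAA29 and IAA20 were low as well, with wild type means of 3.58, 3.52, 4.39, 4.57 and 4.67.

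Of the phosphatases that SAUR proteins bind, 4 were measured, and their differences ran from -0.07 to 0.22. PP2C.D4 (AT3G55050) had log2 values of 8.23 and 8.29 in rsa3-1, against 7.96 and 8.10 in wild type. The genotypes did not overlap, and the difference of 0.22 did not pass (limma, unadjusted p = 0.0625, adjusted p = 0.551).

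**Figure D3:**
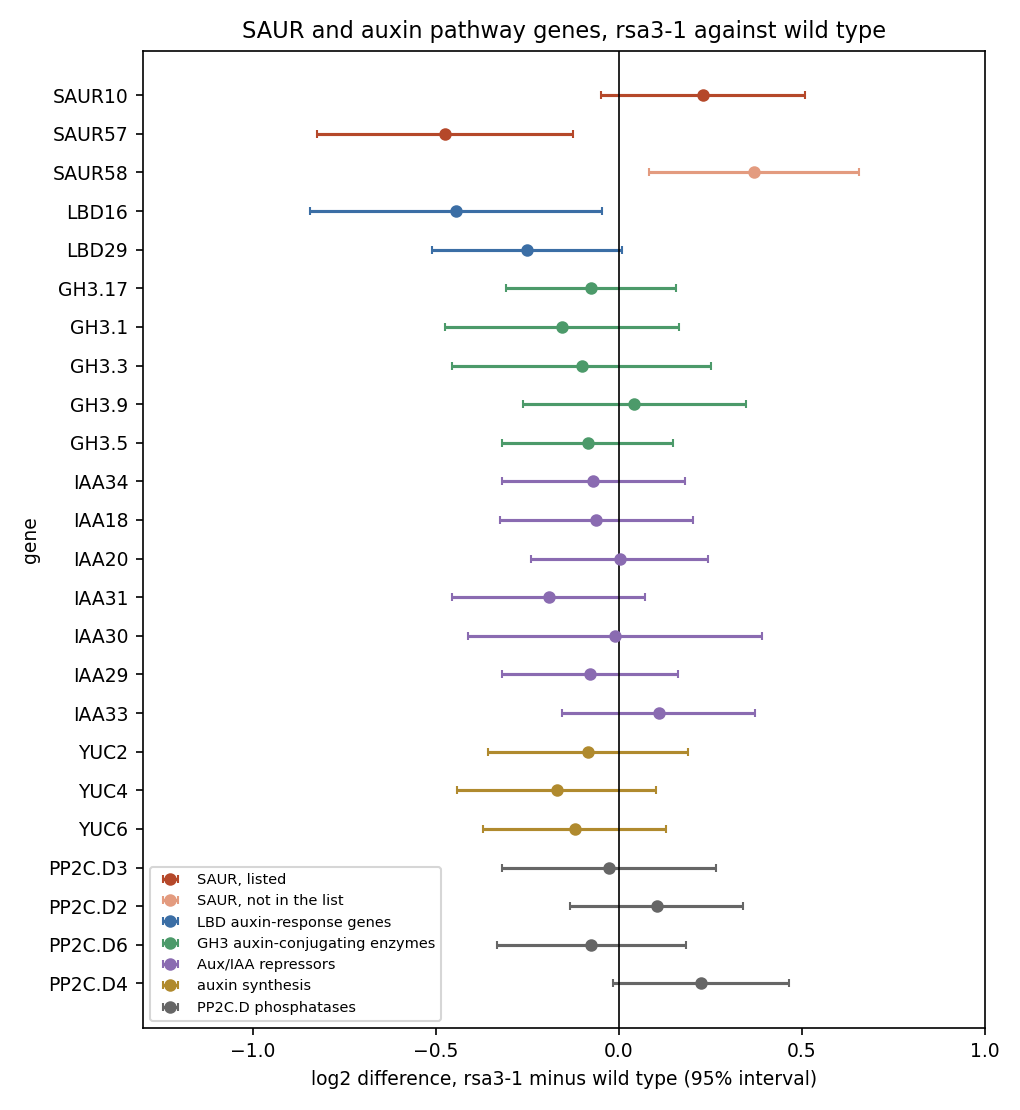
Log2 difference, rsa3-1 minus wild type (horizontal axis), with its 95% interval from limma before adjustment, for the 2 listed SAUR genes, SAUR58 and the 21 measured auxin pathway genes (rows, coloured by list). The intervals of SAUR57, SAUR58 and LBD16 leave out 0, and after adjustment over 22746 probe sets none of the genes shown passed.

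The arrays held whole seedlings, and in such bulk RNA fewer cells of a type and less RNA per cell cannot be told apart. Photosynthetic genes and the root gene PYK10 both gave strong signals, with means of 13.53 in rsa3-1 and 13.48 in wild type for RCA, the activase of Rubisco, and of 13.39 in rsa3-1 and 13.49 in wild type for PYK10. The 3 measured of 4 root and root hair markers were lower in value in rsa3-1, as SAUR57 was. EXPA18 was at -0.37, EXPA7 at -0.28 and PYK10 at -0.11, and 0 of the 3 passed, where 1.13% of all probe sets did. With each array left out, EXPA18 ran from -0.50 to -0.25, EXPA7 from -0.48 to -0.08 and PYK10 from -0.15 to -0.06. EXPA7 was at -0.08 without rsa3-1 replicate 1, the array without which SAUR57 also had its smallest difference. EXPA18 was at -0.37 and PYK10 at -0.12 without that array, and each had its smallest difference without a wild type array. The summed linear signal of the 3 root and root hair markers ran from 10863 to 10999 in rsa3-1 and from 11473 to 12134 in wild type. On the linear scale that sum is almost all PYK10, so its ranges do not speak for EXPA7 and EXPA18. In wild type the log2 means were 6.97 for EXPA7 and 7.17 for EXPA18, against 13.49 for PYK10. Of 6 photosynthetic shoot markers, 4 were measured and all were higher in value in rsa3-1. Their log2 differences were 0.28 for HPR, 0.11 for PSBW, 0.05 for RCA and 0.04 for PSAE-1. For PSAE-1 the genotypes overlapped, and 0 of the 4 passed, where 1.13% of all probe sets did. Their summed linear signal ran from 33585 to 34433 in rsa3-1 and from 31851 to 31980 in wild type. Here too the ranges of the sum do not speak for each gene. The part of these marker differences in the SAUR values was not tested.

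The other marker lists were small. Both guard cell markers were at -0.09 and -0.10, with sums of 244 to 255 in rsa3-1 and of 237 to 301 in wild type. Of 10 seed markers, only the isocitrate lyase gene ICL, whose enzyme lets seedlings draw on seed oil, was measured. It fell, with a log2 difference of -1.94 (limma adjusted p = 0.0063). ICL had log2 values of 10.07 and 9.39 in rsa3-1, against 11.69 and 11.67 in wild type. The call of ICL was lost without wild type replicate 1 (limma adjusted p = 0.0568, log2 difference -1.93). In bacterial and phage control probe sets, wild type replicate 1 had the highest value in 44 of 45. Its median excess over the mean of the other arrays was 0.94, and a link of that array to the ICL call was not tested. Without that array the log2 difference was -0.51 for SAUR57 and 0.15 for SAUR10 (limma adjusted p = 0.603 and 0.913).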

How the data were processed

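Per the submitters' processing notes, the deposited log2 values were made with RMA, a method that removes background, puts arrays on one scale and gives 1 value per probe set. Its software version, the probe set definition and the genome build: not given in the sources used here. Values were used as deposited. RMA compresses differences among dim probe sets, and its quantile step removes a change shared by most transcripts.

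Of 22810 probe sets, 64 array controls were left out of the test. The annotation used here named 1 gene for 13513 probe sets and several for 503, and 8730 were unnamed. RefSeq names (assembly TAIR10.1) were matched by gene identifier for all but 72 of 13508 matched probe sets; the others, both SAUR genes among them, were matched by locus tag or symbol. Sequences of the SAUR genes and probes were not used here.

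All probe sets were fitted together with limma 3.58.1 (R 4.3.3), using lmFit and two-sided eBayes tests of rsa3-1 minus wild type, with Benjamini-Hochberg adjustment over 22746 probe sets, a threshold of 0.05 and 5.35 prior degrees of freedom. The number of arrays limits the precision: an exact permutation test of 2 against 2 cannot give a two-sided p below 0.333. The p-values rest on the spread between these arrays, and limma draws the variance of each probe set towards that of all probe sets. With 2 residual degrees of freedom, fewer than the prior ones, most of each variance estimate is shared. The procedure was also run on data simulated from the variance model it had fitted. That run cannot show whether the model holds for these arrays. Annotation and figures used Python 3.11.15, pandas 2.3.3 and matplotlib 3.10.9.

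The members and gene lists were chosen with earlier results of these data known. Named genes are every measured SAUR gene and, in each pathway list, called genes and the member of smallest p. Other settings tried were quantile and median scaling, leaving out dim probe sets, trended and robust variance, weighted arrays, a block for the replicate number, dropping each array and a threshold of 0.1. The numbers gave no sign of pairing: arrays of the same number deviated from their group means with r = 0.013 over probe sets.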

Additional observations from a re-analysis of the deposited data

How the results depend on the processing

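The count of SAUR genes called stayed at 0 of those tested, and the count of auxin and growth pathway genes at 0, under all 12 alternatives run, the replicate block among them. Calls over all probe sets ran from 42 with the block to 384 at a threshold of 0.1. With so few calls among all probe sets, an unchanged 0 in lists this short says little. Requiring a mean log2 value of at least 5 or 6 left 12 and 9 of the 21 pathway genes. Where a mean log2 value of at least 5 or 6 was required, SAUR10 was not tested, so the SAUR median became the value of SAUR57, -0.47, against -0.12 with both genes. With each array left out, a genotype with 1 array being taken to vary as the other does, the SAUR median ran from -0.29 to 0.04. SAUR57 ran from -0.69 to -0.26 over its 12 alternatives, with adjusted p from 0.108 to 0.852 in limma. SAUR10 ran from 0.12 to 0.34 over its 10, with adjusted p from 0.449 to 0.935. With the replicate block, the differences were -0.47 for SAUR57 and 0.23 for SAUR10 (limma adjusted p = 0.465 and 0.579), and calls over all probe sets went to 42 from 256. Values of SAUR58, the named pathway genes and the markers were run after seeing the data: GH3.1 changed sign to 0.017 without wild type replicate 1 and was at -0.33 without wild type replicate 2 (the cause was not tested), and ICL lost its call with the block (limma adjusted p = 0.0776). Using the mean over a gene's probe sets gave no other value, since each SAUR gene had 1 probe set. SAUR10 lay near the lowest signal, and a p that misses the threshold does not show that the genotypes have the same SAUR10 level.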
